A study of Homo sapiens with 6 samples.

Results

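The genes described here are 10 regulators of entry into S phase: the cyclin-dependent kinase (CDK) inhibitors CDKN2A, CDKN2B, CDKN2C, CDKN2D, CDKN1B and CDKN1C, and the cyclin genes CCND2, CCND3, CCNE1 and CCNA1. They were taken by symbol from the 58381 genes of the count files, and all 10 were found. RNA was sequenced from 786-0 cells, an established line of clear cell renal cell carcinoma, after poly-A enrichment of total RNA. Every library carries the label SETD2 KO, a knockout of the histone H3 methyltransferase SETD2, so no library with intact SETD2 is compared. The 3 groups received DMSO, 100 nM decitabine or 300 nM decitabine, each daily for 3 days, with new medium on day 4 and harvest on day 5, and each group has 2 libraries. Decitabine is a cytidine analogue that is built into replicating DNA and traps DNA methyltransferases. Whether replicate libraries represent separate cultures, and whether the knockout line is a single clone, is not stated in the labels. The p-values therefore measure only how far these libraries differ, and that spread may be technical.

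The RB protein holds E2F transcription factors inactive until it is phosphorylated, first by CDK4 or CDK6 with a D-type cyclin and then by CDK2 with cyclin E. The INK4 inhibitors, encoded by CDKN2A, CDKN2B, CDKN2C and CDKN2D, bind CDK4 and CDK6 and displace the D cyclins. The listed KIP inhibitors, encoded by CDKN1B and CDKN1C, bind whole cyclin and CDK complexes. The list does not hold every KIP inhibitor or D cyclin. Silencing of inhibitor genes with DNA methylation at their promoters is common in tumours, and 9p21, which holds CDKN2A and CDKN2B, is often lost in renal carcinoma. CCNA1 encodes cyclin A1, whose expression in normal tissue is largely limited to male germ cells.

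Start site regions of 6 of these genes are shown because decitabine acts on the methylation of CpG sites: CCNA1 and CDKN2D from the genes that rose, CDKN2C and CDKN1B from those that fell, and CDKN2A and CDKN2B from the 9p21 locus. DNA methylation itself was not measured in these libraries. Each sequence runs 5′ to 3′ on the gene's own strand from 250 bases before a start site to 50 after it, from RefSeq on GRCh38.p14, with CpG dinucleotides in capitals.

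CCNA1 (chr13:36431705-36432004, plus strand): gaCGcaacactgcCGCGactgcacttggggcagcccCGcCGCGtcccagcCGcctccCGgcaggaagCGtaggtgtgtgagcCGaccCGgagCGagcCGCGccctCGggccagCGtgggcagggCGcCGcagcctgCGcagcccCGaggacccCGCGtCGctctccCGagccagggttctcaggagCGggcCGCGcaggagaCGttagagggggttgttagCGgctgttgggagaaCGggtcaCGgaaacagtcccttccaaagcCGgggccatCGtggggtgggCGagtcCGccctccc
CDKN2D (chr19:10568930-10569229, minus strand): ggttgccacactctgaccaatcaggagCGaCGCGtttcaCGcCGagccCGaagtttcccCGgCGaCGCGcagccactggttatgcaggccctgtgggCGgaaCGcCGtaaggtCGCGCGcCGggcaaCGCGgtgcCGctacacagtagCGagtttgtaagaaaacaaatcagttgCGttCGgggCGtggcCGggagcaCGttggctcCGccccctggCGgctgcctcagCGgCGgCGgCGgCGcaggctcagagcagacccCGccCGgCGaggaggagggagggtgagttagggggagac
CDKN2C (chr1:50968456-50968755, plus strand): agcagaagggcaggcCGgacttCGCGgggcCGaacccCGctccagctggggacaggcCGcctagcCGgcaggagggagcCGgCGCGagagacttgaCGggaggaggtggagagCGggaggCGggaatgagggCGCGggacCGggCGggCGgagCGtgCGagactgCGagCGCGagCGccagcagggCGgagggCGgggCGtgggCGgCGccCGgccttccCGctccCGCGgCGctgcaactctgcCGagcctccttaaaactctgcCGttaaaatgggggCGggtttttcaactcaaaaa
CDKN1B (chr12:12717118-12717417, plus strand): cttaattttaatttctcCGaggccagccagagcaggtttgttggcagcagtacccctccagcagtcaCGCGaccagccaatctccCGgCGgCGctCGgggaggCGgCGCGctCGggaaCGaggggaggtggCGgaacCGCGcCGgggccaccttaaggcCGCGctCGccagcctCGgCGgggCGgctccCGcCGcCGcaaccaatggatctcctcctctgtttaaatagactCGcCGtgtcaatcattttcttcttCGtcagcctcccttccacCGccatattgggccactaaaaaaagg
CDKN2A (chr9:21974808-21975107, minus strand): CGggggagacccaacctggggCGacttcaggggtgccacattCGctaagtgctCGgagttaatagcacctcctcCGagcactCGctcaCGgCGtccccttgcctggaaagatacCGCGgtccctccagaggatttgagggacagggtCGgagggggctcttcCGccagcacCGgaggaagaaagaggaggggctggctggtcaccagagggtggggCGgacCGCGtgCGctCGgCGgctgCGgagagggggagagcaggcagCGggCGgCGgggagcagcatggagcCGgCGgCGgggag
CDKN2B (chr9:22009256-22009555, minus strand): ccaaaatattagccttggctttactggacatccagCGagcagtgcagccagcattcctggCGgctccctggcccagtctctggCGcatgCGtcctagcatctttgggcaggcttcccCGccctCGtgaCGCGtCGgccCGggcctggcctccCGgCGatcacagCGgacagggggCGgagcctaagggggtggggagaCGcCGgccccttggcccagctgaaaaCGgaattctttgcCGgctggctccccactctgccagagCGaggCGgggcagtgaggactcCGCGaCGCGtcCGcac

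The windows shown for CCNA1, CDKN2D, CDKN2C and CDKN1B lay above the upper quartile of CpG number, and those of CDKN2A and CDKN2B just under it. CCNA1 held 35 CpG dinucleotides, CDKN2D 36, CDKN2C 37, CDKN1B 29, CDKN2A 26 and CDKN2B 25, against a median of 14 and quartiles of 4 and 28 over 35116 promoter windows of 300 bases. The table held 13 windows for 8 of the genes (CDKN1C and CCND2 had none). The CDKN2C window shown is 1 of 3, and the other two held 8 and 11 CpG dinucleotides. CDKN2A has a second window, upstream at chr9:21995275-21995574, with 28. The 3 windows of CCND3 held 3, 37 and 29, and that of CCNE1 held 47, the highest number among the 13. The GC box word GGGCGG, searched on both strands, was in 10 of the 13 windows and in 45.0% of all windows. Words for an E2F site, searched likewise, were in 0 of the 13 windows and in 3.31% of all windows. The windows compared were not matched for CpG number. A word match is a description of the letters and not a bound site.

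Between 89159112 and 96646427 reads were assigned to genes in each library. SETD2 itself had 77.9 and 81.2 CPM with DMSO, then 39.8 and 49.1 at 100 nM and 16.4 and 21.7 at 300 nM (CPM, reads scaled to library size with TMM scaling), so reads on the targeted gene were present in every library, and gene-level counts do not show the edited part. Of 10 markers of clear cell renal carcinoma and kidney epithelium, 9 had reads in both DMSO libraries and 10 in all decitabine libraries (CA9 had 0 reads with DMSO), with summed levels of 4035 to 4078 CPM, 4491 to 4619 CPM and 5522 to 6542 CPM in order of dose. The markers did not move together: the kidney lineage factors PAX8 (log2 -0.69 and -1.66) and PAX2 (-0.65 and -0.42) fell at both doses, while the keratin genes KRT8 (0.50 and 1.43) and KRT18 (0.97 and 2.28) rose (these 4 were named after their values were seen). Markers of other cell types were low, with higher sums under decitabine. Of the immune markers, MS4A1 had 0 reads in all libraries and CD3E had 0 with DMSO. The 4 endothelial markers summed to 0.936 to 1.33, 1.45 to 1.72 and 3.15 to 3.46 CPM, and the 4 fibroblast markers to 1.22 to 1.43, 9.20 to 10.3 and 5.24 to 9.57 CPM, with none at 0 in a whole group. Their part in the results was not tested.

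At 100 nM, 5 of the 10 genes rose against DMSO (CDKN2A, CDKN2D, CDKN1C, CCND3 and CCNA1), 2 fell (CDKN2C and CDKN1B), CCND2 and CCNE1 were not called, and CDKN2B had too few reads to test. At 300 nM, 6 rose (the same 5 and CCNE1) and 3 fell (CDKN2C, CDKN1B and CCND2). A call is an adjusted p under 0.05 in edgeR's quasi-likelihood test, two-sided and adjusted by Benjamini-Hochberg over 23160 genes. Decitabine moved much of the transcriptome: at 100 nM 42.7% of all tested genes were called (24.0% higher and 18.7% lower), and at 300 nM 65.9% (34.8% higher and 31.1% lower). The median log2 fold change over all tested genes was 0.025 and 0.046. CDKN2A passed the filter on low counts only through its 300 nM libraries, so its calls depend in part on that filter. Both comparisons share the DMSO libraries. Between the doses, 6 genes were higher at 300 nM than at 100 nM (CDKN2A, CDKN2C, CDKN2D, CDKN1C, CCND3 and CCNE1), against 43.4% of all tested genes called (20.0% higher and 23.4% lower), and CDKN1B, CCND2 and CCNA1 were not called. Without 300 nM replicate 1 the number was 3. In bulk RNA, fewer cells with a transcript and less of it per cell cannot be told apart.

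**Figure D1:**
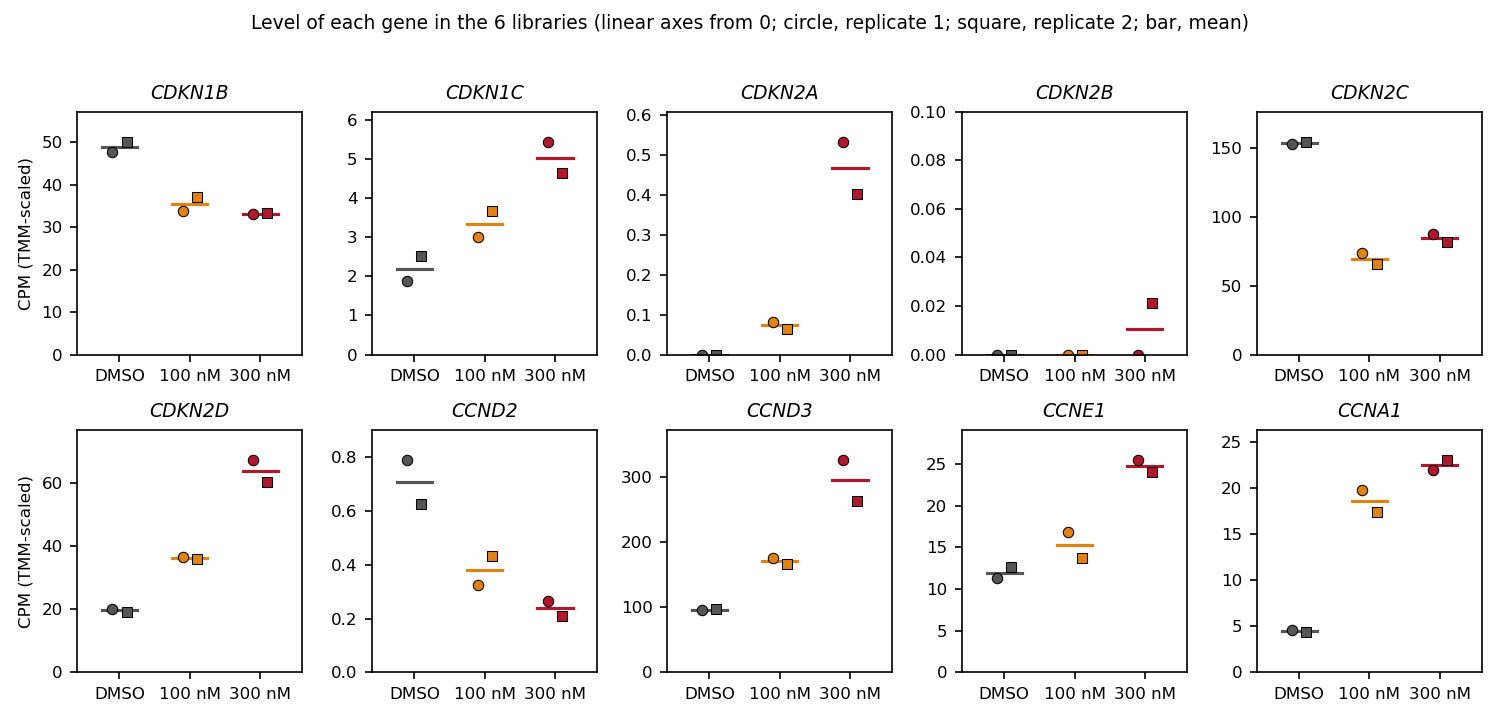
Level of each of the 10 genes in CPM with TMM scaling (vertical axes, linear from 0, each with its own range) in the 6 libraries, by group; circles are replicate 1, squares replicate 2 and bars the mean of 2 libraries. CDKN2D, CCND3 and CCNE1 climb from group to group, CCNA1 reaches 17.4 CPM or more at 100 nM, CDKN2C is lowest at 100 nM, and CDKN2B has reads in 1 library alone.

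Among the INK4 genes, CDKN2C (ENSG00000123080.10, chr1:50960745-50974633, plus strand) encodes p18, and it was the most abundant of the 10 genes with DMSO. Its level was 153.0 and 154.6 CPM with DMSO, then 73.7 and 65.6 at 100 nM and 88.0 and 82.1 at 300 nM. Both doses lay far below DMSO and no ranges overlapped, with the lowest values at the lower dose. Against DMSO, 100 nM gave -1.14 on the log2 scale (SE 0.11, adjusted p = 1.3e-07) and 300 nM gave -0.85 (SE 0.11, adjusted p = 1.7e-06). The 300 nM libraries were higher than those at 100 nM by 0.29 on the log2 scale (SE 0.10, adjusted p = 0.034). That last call was lost in 5 of 6 fits that left out a library (adjusted p = 0.051 to 0.298) and held without 300 nM replicate 2 (adjusted p = 0.012).

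CDKN2D (ENSG00000129355.6, chr19:10566462-10569059, minus strand), which encodes p19, moved the opposite way. It stood at 20.1 and 19.3 CPM with DMSO, then 36.5 and 35.9 at 100 nM and 67.2 and 60.4 at 300 nM. The 3 groups were separate and stepped up with dose. The rise was 1.84-fold at 100 nM (log2 0.88, SE 0.12, adjusted p = 9.5e-06) and 3.24-fold at 300 nM (log2 1.70, SE 0.12, adjusted p = 1.3e-09), and 300 nM exceeded 100 nM by 0.82 on the log2 scale (adjusted p = 2.6e-05). Per kilobase of exon, on the RPKM scale, CDKN2C made up 78.0% ± 0.615 (SD, n = 2) of the summed INK4 level with DMSO and CDKN2D 22.0% ± 0.615. CDKN2D held 53.5% ± 1.78 of the sum at 100 nM and 62.2% ± 0.628 at 300 nM, so on this scale it stood above CDKN2C at both doses. In CPM, without division by length, CDKN2C stayed above CDKN2D. The means were 69.6 against 36.2 CPM at 100 nM and 85.1 against 63.8 CPM at 300 nM. The order thus depends on merged exon length, and which transcripts were made was not tested.

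CDKN2A (ENSG00000147889.17, chr9:21967753-21995301, minus strand) encodes both p16, an INK4 protein, and p14ARF, which stabilises p53, from different first exons that gene-level counts do not separate. It had 0 and 0 reads with DMSO, then 8 and 6 at 100 nM and 44 and 38 at 300 nM. Reads appeared in all 4 decitabine libraries and in neither DMSO library, at levels of at most 0.532 CPM. A count of 0 allows up to 3 read pairs, or 6 reads since both mates were counted, here over the DMSO group. The pooled 100 nM level was 2.33 times that limit and the pooled 300 nM level 14.6 times it. These ratios leave out the counting error of the decitabine libraries, and 100 nM replicate 2 had only 6 reads. In the edgeR fit, which is separate from these ratios, CDKN2A was called higher at 100 nM (adjusted p = 0.0076) and at 300 nM (adjusted p = 3.4e-05). The pooled ratio of 300 nM to 100 nM was 6.29 (exact 95% interval 2.79 to 16.6 over read pairs, counting error only). The edgeR estimate between the doses was 2.65 on the log2 scale (adjusted p = 0.0083). CDKN2A entered the tested set only through its 300 nM libraries, so these p-values rest on a filter that the group with the most reads decided. With no filter the 3 comparisons were called as well (adjusted p = 0.0015, 1.2e-09 and 0.0022). The call between the doses was lost without 100 nM replicate 2 (adjusted p = 0.052) or without 300 nM replicate 1 (adjusted p = 0.065). Of the merged exons of CDKN2A, 7.88% lie under exons of the antisense gene CDKN2B-AS1, which had 0 reads in every library.

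CDKN2B (ENSG00000147883.10, chr9:22002903-22009363, minus strand), which encodes p15, had 0 reads in 5 libraries and 2 reads in 300 nM replicate 2. With a floor of 6 reads per library, or 0.0611 to 0.0725 CPM, its level was at or under that floor in every library, and no fold is given. CDKN2B and CDKN2A are neighbours, and of the listed genes CDKN2B was the only one without reads in a whole decitabine group.

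The other 9p21 genes show what was read around them. MTAP, the methylthioadenosine phosphorylase gene next to CDKN2A, had 2410 and 2525 reads with DMSO, then 2642 and 2837 at 100 nM and 1510 and 2166 at 300 nM. CDKN2A-DT, a noncoding gene listed directly beyond the end of CDKN2A, had 0 and 0 reads, 1 and 12, and 14 and 6. DMRTA1, on the far side of CDKN2B, had 794 and 929 reads with DMSO, then 499 and 534 at 100 nM and 306 and 392 at 300 nM. Transcripts on both sides of the pair were thus read in every library while CDKN2A and CDKN2B had no reads with DMSO. DNA copy number was not measured, and whether CDKN2A and CDKN2B are intact in this line was not tested. Which part of CDKN2A its few reads came from is not given by gene-level counts. Of the 11 neighbours matched, 9 were tested. At 100 nM 1 rose (CDKN2A-DT) and 3 fell (MLLT3, KLHL9 and DMRTA1). At 300 nM 3 rose (HACD4, MIR31HG and CDKN2A-DT) and 5 fell (MLLT3, KLHL9, IFNE, MTAP and DMRTA1). Over all tested genes 24.0% rose and 18.7% fell at 100 nM, and 34.8% rose and 31.1% fell at 300 nM. CDKN2A-DT passed the filter on low counts only through 100 nM replicate 2 and 300 nM replicate 1. IFNE, with 0 reads in both 300 nM libraries, passed it only through DMSO and 100 nM libraries. The calls of CDKN2A-DT and IFNE depend in part on that filter. The CDKN2A-DT call at 100 nM was lost in 5 of 6 fits that left out a library, all but that without 100 nM replicate 1, and those of MLLT3 and KLHL9 without DMSO replicate 2 or 100 nM replicate 1. At 300 nM the CDKN2A-DT call was lost without 300 nM replicate 1, and that of MTAP without either DMSO library or 300 nM replicate 1. FOCAD was called at neither dose (log2 fold changes of -0.10 and -0.24), but at 300 nM it was called lower with the replicate block (adjusted p = 0.030) and higher with length and GC offsets (log2 0.23, adjusted p = 0.018). IFNE, an interferon gene, had 18 and 30 reads with DMSO, then 6 and 13 at 100 nM and 0 in both 300 nM libraries, and ELAVL2 had 6 reads in 300 nM replicate 1 alone. When exon length and GC content were offset, the MTAP change at 300 nM turned from -0.34 to 1.28 on the log2 scale, and MLLT3, DMRTA1 and MIR31HG were no longer called there (log2 0.10, -0.25 and 0.062). Counts with offsets were 3 higher and 1 lower at 100 nM, and 2 lower (KLHL9 and IFNE) at 300 nM. HACD4 (log2 4.06), MTAP, FOCAD and CDKN2A-DT (6.38) were called higher at 300 nM with offsets.

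**Figure D2:**
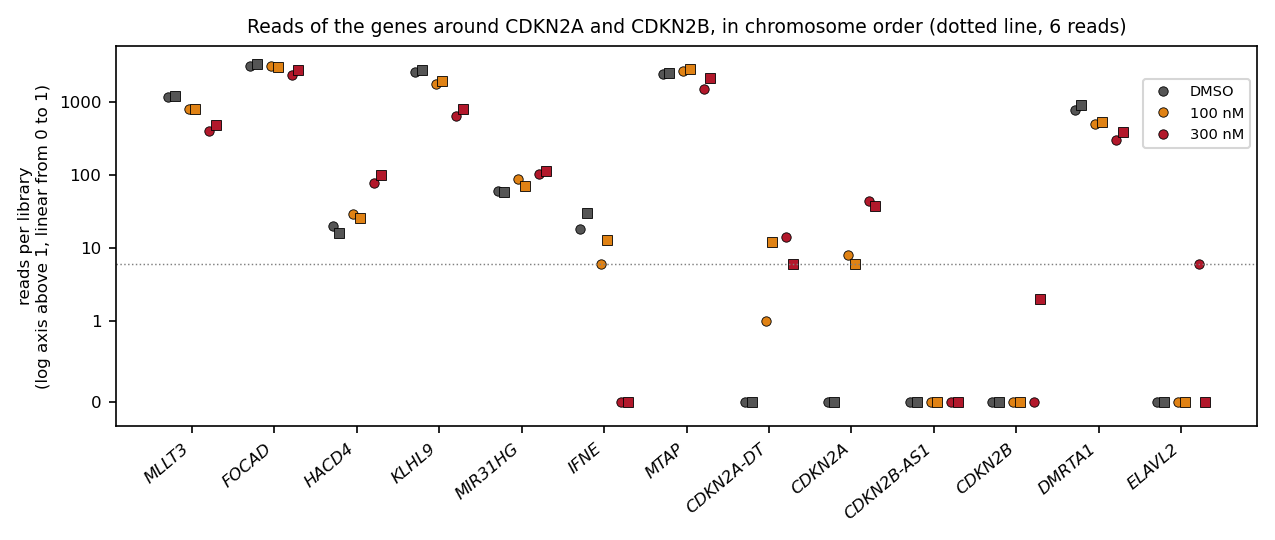
Reads per library (vertical axis, log scale above 1 and linear from 0 to 1) for CDKN2A, CDKN2B and 11 neighbours at 9p21, ordered by start position; colours are the groups, circles replicate 1, squares replicate 2, and the dotted line marks 6 reads (3 pairs), the most that a count of 0 allows. CDKN2A goes from 0 reads with DMSO to 44 and 38 at 300 nM, between MTAP and DMRTA1 with over 300 reads in every library, while CDKN2B-AS1 stays at 0.

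Of the KIP genes, CDKN1B (ENSG00000111276.10, chr12:12715058-12722371, plus strand) encodes p27, the inhibitor of cyclin E and CDK2 that holds cells in quiescence. Its level was 47.8 and 50.01 CPM with DMSO, then 33.7 and 37.2 at 100 nM and 33.0 and 33.3 at 300 nM. Both doses lay below DMSO without overlap, and close to each other. It fell by 0.46 on the log2 scale at 100 nM (SE 0.11, adjusted p = 0.0034) and by 0.56 at 300 nM (SE 0.11, adjusted p = 0.000395). The difference between doses was -0.10 (95% interval -0.34 to 0.15, adjusted p = 0.533). At 100 nM the call was lost without DMSO replicate 2 (adjusted p = 0.063) or without 100 nM replicate 1 (adjusted p = 0.067).

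CDKN1C (ENSG00000129757.13, chr11:2883213-2885773, minus strand) encodes p57 and is an imprinted gene expressed mainly from the maternal allele. It had 1.87 and 2.51 CPM with DMSO, then 3.01 and 3.68 at 100 nM and 5.44 and 4.65 at 300 nM. Levels were low, 180 to 450 reads per library, and the groups stepped up without overlap. The rise was 1.52-fold at 100 nM (log2 0.61, SE 0.20, adjusted p = 0.023) and 2.30-fold at 300 nM (log2 1.20, SE 0.20, adjusted p = 6.1e-05). With length and GC offsets these became 0.11 (adjusted p = 0.666) and 0.22 (adjusted p = 0.313), and neither was called. Between doses CDKN1C differed by 0.59 (adjusted p = 0.023), a call lost without 100 nM replicate 1 (adjusted p = 0.175) or 300 nM replicate 1 (adjusted p = 0.134). Without DMSO replicate 1 or 100 nM replicate 2 the 100 nM call was also lost (adjusted p = 0.236 and 0.167).

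In the imprinted region around CDKN1C at 11p15.5, 12 of 13 listed neighbours were tested. At 100 nM 7 rose and 1 fell, and at 300 nM 8 rose and 1 fell, with median log2 fold changes of 0.61 and 1.503. Over all tested genes 24.0% rose and 18.7% fell at 100 nM, and 34.8% rose and 31.1% fell at 300 nM. H19, a maternally expressed noncoding RNA, had 2 and 9 reads with DMSO, then 906 and 974 at 100 nM and 2141 and 2442 at 300 nM. KCNQ1OT1, the paternally expressed noncoding RNA that silences this cluster in cis, had 2824 and 2283 reads with DMSO, then 735 and 731 at 100 nM and 182 and 243 at 300 nM. It was the only tested neighbour that fell (log2 -1.80 and -3.49, adjusted p = 3.4e-08 and 1.0e-11). PHLDA2, a maternally expressed neighbour, rose from 32.4 ± 2.57 CPM to 87.5 ± 5.00 and 174.7 ± 29.1 (SD, n = 2; log2 1.43 and 2.43, adjusted p = 5.5e-08 and 3.7e-11). These 3 changes were also called with length and GC offsets (H19 6.92 and 7.84, KCNQ1OT1 -0.59 and -1.66, PHLDA2 0.91 and 1.38), although 5 neighbours rose and 3 fell at 300 nM with them. TSPAN32, CD81, SLC22A18AS and CARS1 were higher at both doses, SLC22A18 at 100 nM, and TSSC4 and KCNQ1 at 300 nM. With offsets the calls of SLC22A18 at 100 nM (log2 0.11) and of TSPAN32 (1.07), KCNQ1 (1.69) and TSSC4 (-0.069) at 300 nM were lost. At 300 nM TSPAN32 also lost its call without DMSO replicate 1, and KCNQ1 without DMSO replicate 1 or 300 nM replicate 2. SLC22A18 lost its call at 100 nM without DMSO replicate 2. H19 and TSPAN32 passed the filter on low counts only through decitabine libraries, and KCNQ1 only through those at 300 nM. The calls of these genes depend in part on that filter. SLC22A18 was called higher at 300 nM with the replicate block (adjusted p = 0.026) and lower with offsets (log2 -0.44). NAP1L4 and TRPM5 were called at neither dose (adjusted p of at least 0.062), although NAP1L4 was called lower at both with offsets (log2 -0.23 and -0.22), and IGF2 had 2 reads in 300 nM replicate 2 alone. SLC22A18 and SLC22A18AS overlap on opposite strands, and counting without strand does not tell their reads apart.

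Among the listed D cyclins, CCND3 (ENSG00000112576.12, chr6:41934933-42050357, minus strand), a partner of CDK4 and CDK6, was the higher of the pair per length. Its level was 95.7 and 96.6 CPM with DMSO, then 175.7 and 166.1 at 100 nM and 325.3 and 262.6 at 300 nM. All groups were separate, and the 300 nM libraries differed more from each other than those of the other groups. The rise was 1.78-fold at 100 nM (log2 0.83, SE 0.11, adjusted p = 1.0e-05) and 3.06-fold at 300 nM (log2 1.61, SE 0.11, adjusted p = 1.3e-09), and the step from 100 to 300 nM was 0.78 (adjusted p = 2.6e-05).

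CCND2 (ENSG00000118971.7, chr12:4273772-4305350, plus strand), which encodes cyclin D2, was near the limit of detection and moved the other way. It had 76 and 59 reads with DMSO, then 32 and 40 at 100 nM and 22 and 20 at 300 nM, or 0.791 and 0.628, 0.326 and 0.433, and 0.266 and 0.211 CPM. The groups did not overlap, although the exact 95% counting intervals, taken over read pairs, of 100 nM replicate 1 (0.186 to 0.530 CPM) and 300 nM replicate 1 (0.133 to 0.476 CPM) did. At 300 nM CCND2 was 2.97-fold lower (log2 -1.57, SE 0.44, adjusted p = 0.0049). At 100 nM the estimate was -0.90 (95% interval -1.79 to -0.012, adjusted p = 0.096), which was not called, and the difference between doses was -0.67 (95% interval -1.63 to 0.29, adjusted p = 0.252).

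CCNE1 (ENSG00000105173.13, chr19:29811898-29824308, plus strand) encodes cyclin E1, which activates CDK2 late in G1. It stood at 11.3 and 12.6 CPM with DMSO, then 16.8 and 13.7 at 100 nM and 25.5 and 24.0 at 300 nM. The 100 nM libraries lay above DMSO by little, and the 300 nM libraries above both. CCNE1 was 2.07-fold higher at 300 nM (log2 1.05, SE 0.14, adjusted p = 4.7e-06), and 300 nM exceeded 100 nM by 0.70 (adjusted p = 0.000683). At 100 nM the estimate was 0.35 (95% interval 0.056 to 0.65, adjusted p = 0.052) and missed the threshold. With the replicate number as a block it was called there (log2 0.35, adjusted p = 0.0083), and with length and GC offsets it turned to -0.072 (adjusted p = 0.585). Leaving out 100 nM replicate 2, 300 nM replicate 1 or 300 nM replicate 2 also brought it under the threshold (adjusted p = 0.025, 0.035 and 0.035).

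CCNA1 (ENSG00000133101.9, chr13:36431520-36442882, plus strand) had the largest fold change of the 8 tested genes that had reads with DMSO. Its level was 4.55 and 4.34 CPM with DMSO, then 19.8 and 17.4 at 100 nM and 21.9 and 23.0 at 300 nM. Most of the distance from DMSO was covered at 100 nM. The rise was 4.18-fold at 100 nM (log2 2.06, SE 0.14, adjusted p = 2.8e-09) and 5.06-fold at 300 nM (log2 2.34, SE 0.14, adjusted p = 2.4e-10). The step between doses was 0.28 (95% interval -0.0022 to 0.56, adjusted p = 0.102), which was called with the replicate block (log2 0.28, adjusted p = 0.034).

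Long and GC-poor transcripts can shift together between libraries, so each fold change was also computed with per-library offsets for exon length and GC content. For the 8 genes with DMSO reads, the offsets lowered every rise and deepened the falls of CDKN2C and CDKN1B. At 300 nM the log2 fold change became 0.64 in place of 1.70 for CDKN2D, 1.09 in place of 1.61 for CCND3, 0.34 in place of 1.05 for CCNE1 and 1.73 in place of 2.34 for CCNA1, and all 4 were still called. That of CDKN2C became -1.69 in place of -0.85, and that of CDKN1B -0.94 in place of -0.56. At 100 nM CDKN2D became 0.33, CCND3 0.55, CCNA1 1.66, CDKN2C -1.58 and CDKN1B -0.77, each still called. The CDKN2C difference between doses turned from 0.29 to -0.11 (adjusted p = 0.199), and that of CDKN1C fell to 0.11 (adjusted p = 0.664). Which of the scales is closer to the RNA in the cells was not tested.

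**Figure D3:**
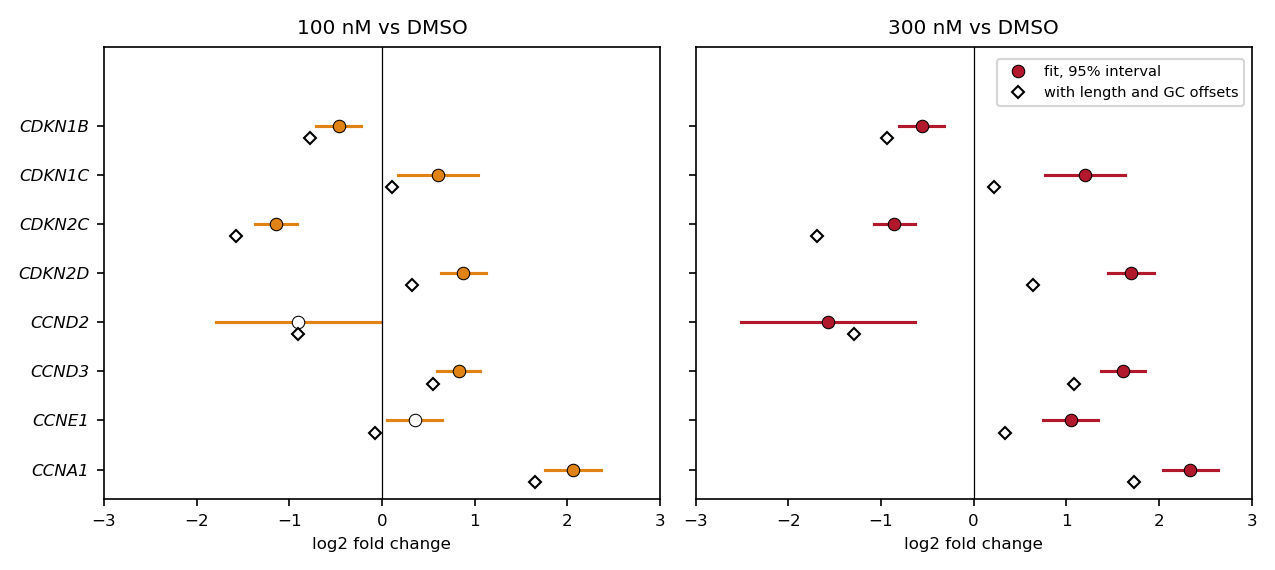
Log2 fold change against DMSO (horizontal axis) at 100 nM and 300 nM for the 8 tested genes with reads in both DMSO libraries; circles with bars are the edgeR estimate and its 95% interval (open circle, not called), and diamonds the estimate with length and GC offsets. The diamonds lie to the left of the circles except for CCND2, and those of CDKN1C move close to 0 (0.11 and 0.22).

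Per kilobase of exon, the order of the 10 genes changed with treatment. With DMSO CDKN2C led at 46.4 ± 0.343 RPKM (SD, n = 2), followed by CDKN1B at 17.4 ± 0.561, CCND3 at 16.6 ± 0.107, CDKN2D at 13.1 ± 0.372, CCNE1 at 4.68 ± 0.380, CCNA1 at 1.85 ± 0.0606, CDKN1C at 0.884 ± 0.182 and CCND2 at 0.0991 ± 0.0161. At 100 nM CCND3 came first at 29.5 ± 1.17 RPKM, then CDKN2D at 24.1 ± 0.257, CDKN2C at 20.98 ± 1.72 and CDKN1B at 12.6 ± 0.876, with CCNA1 (7.73 ± 0.708) now above CCNE1 (5.98 ± 0.873). At 300 nM CCND3 reached 50.7 ± 7.64 RPKM, CDKN2D 42.5 ± 3.21, CDKN2C 25.6 ± 1.24 and CDKN1B 11.8 ± 0.0881. CCNE1 (9.69 ± 0.408) and CCNA1 (9.37 ± 0.323) overlapped there, and CDKN2A (0.108 ± 0.0213) stood above CCND2 (0.0333 ± 0.00539). No other neighbours in the order overlapped between libraries, apart from CDKN2A and CDKN2B at 0 with DMSO.

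The 6 inhibitors summed to 77.7 ± 0.714 RPKM with DMSO, 59.0 ± 0.916 at 100 nM and 82.0 ± 4.61 at 300 nM (SD, n = 2), with CDKN2C at 59.6%, 35.5% and 31.3% of the sum. The 4 cyclins summed to 23.2 ± 0.411, 43.2 ± 2.74 and 69.8 ± 7.73 RPKM, with CCND3 at 71.4%, 68.2% and 72.5% of the sum. Within the cyclins the share of CCNA1 was 7.98% ± 0.402 with DMSO, 17.9% ± 0.504 at 100 nM and 13.5% ± 1.96 at 300 nM. CDKN1C made up 4.82% ± 0.800 of the KIP sum with DMSO and 14.7% ± 1.48 at 300 nM. These sums and shares are descriptions of transcript level, cover the listed genes only and carry no test. They were not recomputed with length and GC offsets. Those offsets put CDKN2C at -1.69 and CDKN2D at 0.64 on the log2 scale at 300 nM against DMSO. The course of the inhibitor sum over the doses therefore holds for the scale without offsets only.

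**Figure D4:**
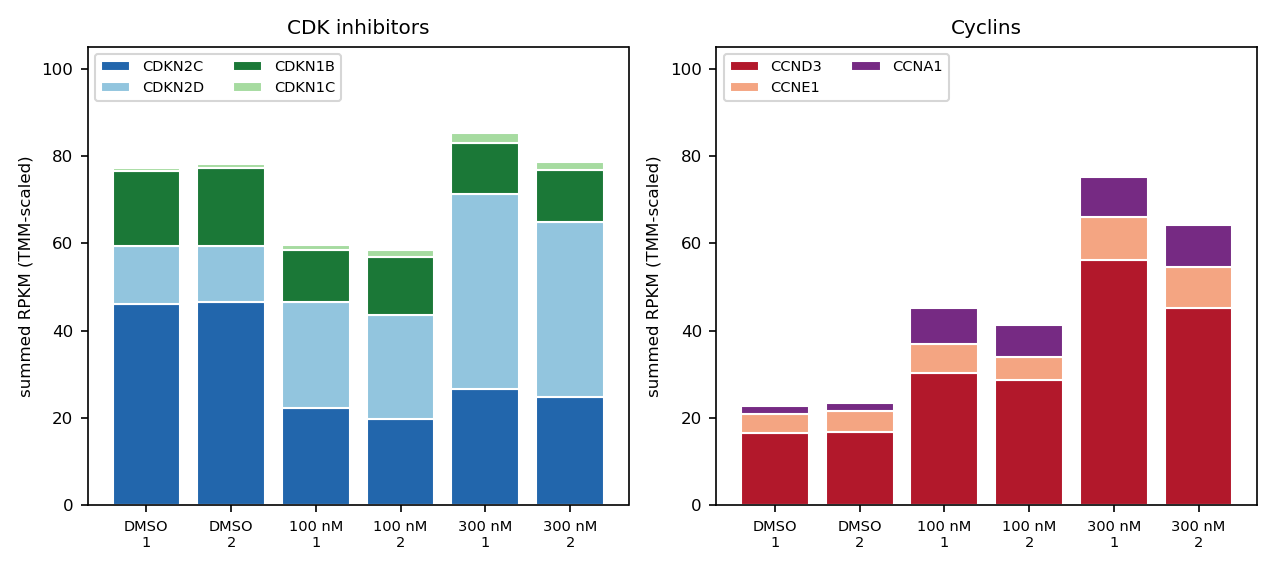
Summed level in RPKM with TMM scaling (vertical axis, from 0) of 4 CDK inhibitors (left) and 3 cyclins (right) in each of the 6 libraries, stacked by gene; CDKN2A, CDKN2B and CCND2, too low to see at this scale, are left out. The CDKN2C part shrinks and the CDKN2D part grows with decitabine, and the CCND3 part of the cyclin bar is the tallest in every library.

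Other genes of the same step were counted for comparison from a list of 42 G1/S regulators. It holds CDKs, E2F and RB family members, ubiquitin ligases, DREAM complex subunits and others. Among these others are FOXO genes, KLF6, TGFBR2, SMAD3 and SMAD4. At 100 nM 2 rose and 13 fell, and at 300 nM 8 rose and 24 fell, with median log2 fold changes of -0.10 and -0.50. Over all tested genes 24.0% rose and 18.7% fell at 100 nM, and 34.8% rose and 31.1% fell at 300 nM. The list was not tested as a set. With the replicate block 6 rose at 100 nM, and without either 300 nM library 8 did. Without DMSO replicate 2, 8 fell. The 2 that rose at 100 nM, SMAD3 (log2 0.86) and KLF6 (log2 0.50), were named after their values were seen. CDK6, a kinase bound by the INK4 proteins, was 162.2 ± 8.29 CPM with DMSO, 55.5 ± 10.9 at 100 nM and 24.0 ± 2.36 at 300 nM (log2 -1.55 and -2.76, adjusted p = 4.7e-08 and 2.2e-11). CDK4, also bound by them, was 135.1 ± 3.67, 140.9 ± 4.27 and 167.2 ± 23.5 CPM (log2 0.06 and 0.31, adjusted p = 0.693 and 0.021). With offsets CDK4 was called lower at both doses (log2 -0.33 and -0.37). E2F1 and CDC37 rose at 300 nM (log2 0.83 and 0.81), but not with offsets (-0.16 and -0.10). CDK4, E2F1 and CDC37 were also named after their values were seen. RB1, the target of CDK4 and CDK6, was 96.04 ± 4.75, 43.5 ± 4.96 and 16.1 ± 2.90 CPM (log2 -1.14 and -2.57, adjusted p = 2.1e-06 and 5.9e-11). The RB relative RBL1 (-1.05 and -2.41), the cyclin E2 gene CCNE2 (-1.14 and -2.58) and the repressor E2F8 (-1.16 and -1.63) fell at both doses as well. With offsets the 300 nM values were -1.28 for CDK6, -1.20 for RB1, -1.41 for RBL1, -1.35 for CCNE2 and -1.67 for E2F8, all still called.

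CCNE1 and CCNE2, both cyclin E genes, thus had opposite directions at 300 nM, 1.05 and -2.58 on the log2 scale. Of 30 genes of S phase and mitosis, 1 rose and 15 fell at 100 nM, and 10 rose and 10 fell at 300 nM. The median log2 fold changes were -0.24 and 0.12. At 300 nM these counts lay near the shares over all tested genes (34.8% higher and 31.1% lower). At 100 nM the shares over all tested genes were 24.0% higher and 18.7% lower. With the replicate block 2 rose at 100 nM, and without DMSO replicate 1, 6 rose at 300 nM. TOP2A, DNA topoisomerase II alpha, fell at both doses (log2 -1.42 and -2.82, adjusted p = 4.4e-08 and 5.7e-12), as did the proliferation marker MKI67 (-1.14 and -1.90) and the mitotic checkpoint kinase gene BUB1 (-0.80 and -1.19). CDK1 fell too (-0.52 and -1.12), but with length and GC offsets it was called at neither dose (-0.19 and 0.049). MYBL2, a transcription factor of the cell cycle, rose by 1.15 at 300 nM (0.19 with offsets). With offsets 8 of the G1/S regulators rose and 22 fell at 100 nM, and 3 genes of S phase and mitosis rose and 21 fell at 300 nM.

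**Figure D5:**
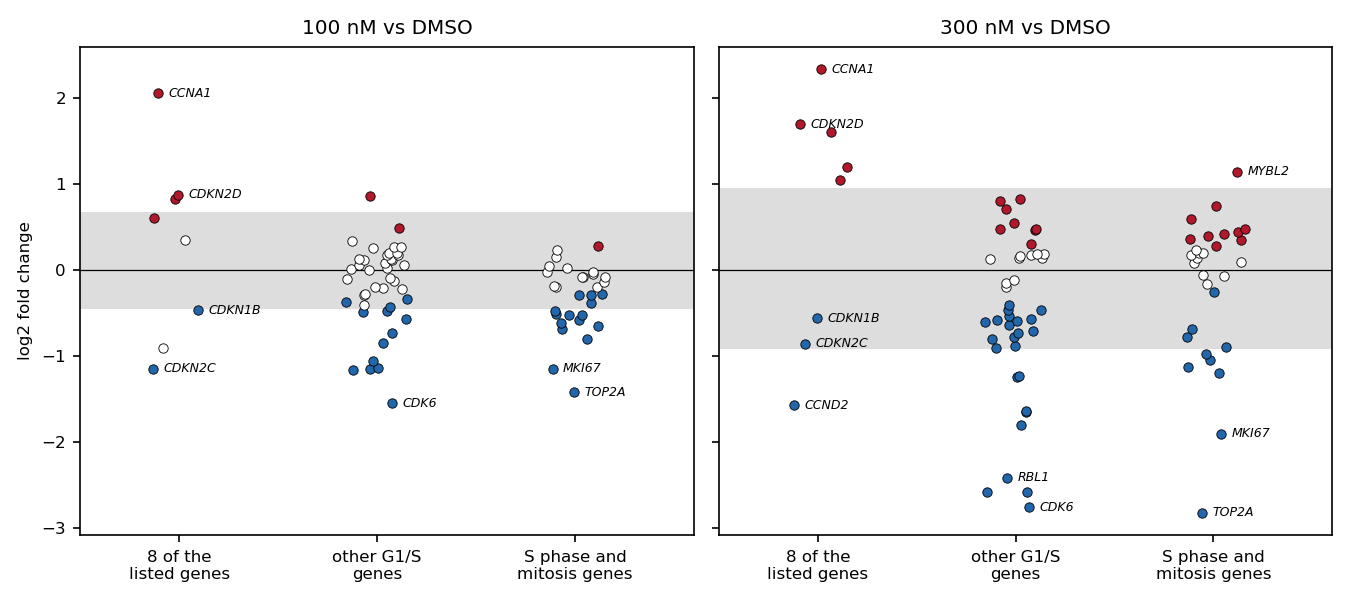
Log2 fold change against DMSO (vertical axis) at 100 nM and 300 nM of the 8 listed genes with DMSO reads, 42 other G1/S genes and 30 genes of S phase and mitosis; each point is a gene (red, called higher; blue, called lower; white, not called) and the grey band spans the quartiles of all tested genes (-0.44 to 0.66 and -0.91 to 0.95). CCNA1, CDKN2D, CCND3, CDKN1C and CCNE1 lie above the band at 300 nM, and CDK6, TOP2A and MKI67 lie below it at both doses.

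The genes whose 6 library levels followed each listed gene most closely were sought among 12431 or 12432 protein-coding genes of at least 1 CPM on average, as the root mean square difference of log2 CPM centred on the DMSO mean. For CCND3 it was GSTP1, a glutathione transferase gene, at 0.0207, and then KLHL21 at 0.0385. CDKN2C was nearest to SAPCD2 (0.0317) and C1orf159 (0.0567), CDKN1B to RBM47 (0.0357) and SFSWAP (0.0477), and CCNE1 to APOBEC3B (0.0481) and SMAGP (0.0602). CDKN2D was nearest to KRT80 (0.0632) and COL17A1 (0.0651), CCNA1 to SLC12A8 (0.0668) and GOLGA7B (0.0772), CCND2 to EID2B (0.0864) and KIFC2 (0.0916), and CDKN1C to JAM3 (0.127) and ADPRHL1 (0.131). The CDKN2A values, with 0.1 CPM added to each level, were least closely matched, by KRT18 at 0.166 and CLIP3 at 0.181. CDKN2B was not searched, and CDKN2A, CDKN2B and CCND2, under 1 CPM, could not be chosen as a nearest gene. The libraries share depth and treatment, so these are descriptions over 6 points.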

How the data were processed

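RNA from 6 libraries (3 groups of 2) was analysed. The deposited counts are whole reads per gene, made by the authors from STAR alignments on GENCODE v28 models; the counter was featureCounts, version 1.5.0-p3, per the file headers. The recorded command has no paired-end or strand option, per the file headers, so mates counted singly and antisense reads were not told apart; even numbers were 70.0% to 74.4% of counts from 1 to 10. The submitters' processing notes name hg19 and GRCh37, but the coordinates are GRCh38: all 56933 genes with the same versioned identifier in GENCODE v29 had its coordinates. Names came from v29 for 58261 genes. The deposited log2 matrix (variance-stabilised values, scaled by the authors, function not stated) served only as an alternative.

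Counts were scaled by TMM, filtered with filterByExpr (23160 genes kept, 9 of the 10 listed) and tested with edgeR 4.0.16 (R 4.3.3, quasi-likelihood, Benjamini-Hochberg adjustment, adjusted p under 0.05) fitted once over the 6 libraries with 3 residual degrees of freedom. The biological coefficient of variation was 11.8%. RPKM used merged exon length. A count of 0 allows 3 read pairs (6 reads, as both mates were counted). Floors and exact 95% intervals were taken over read pairs, cover counting error only and, without molecular identifiers, may be too narrow. The scripts were tested on simulated data. Replicates differed beyond counting error (chi-square per gene 9.04, 24.4 and 44.0 in order of dose). Same-numbered libraries deviated together weakly (correlations 0.121, 0.126 and 0.267 between pairs of groups). Whether the numbers, taken from the titles, mark paired libraries was not tested. The main fit had no replicate block, and a fit with the block was an alternative. Other alternatives were scaling (DESeq2 size factors, upper quartile, library size), no filter, DESeq2 1.42.0, limma 3.58.1 on the deposited matrix, only the groups compared, length and GC offsets (mgcv 1.9.3) and each library left out. The listed genes and all lists were chosen with earlier results of these data known. Besides the 10, the text names for each list the genes, 5 at most, of smallest adjusted p at 300 nM, all tested neighbours, and the 2 most alike genes. Further genes are marked in the text as named after their values were seen. CDKN2A-AS1, a listed 9p21 transcript, had no match and is not analysed here. The summed level of the immune markers is not reported here.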

Additional observations from a re-analysis of the deposited data

How the results depend on the processing

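At both doses against DMSO, CDKN2A, CDKN2C, CDKN2D, CCND3 and CCNA1 kept their direction and call in 15 of 15 alternatives, as did CDKN1B, CCND2 and CCNE1 at 300 nM. The CDKN2A calls depend in part on the filter, which its 300 nM libraries decided. Over the 9 tested genes and the counts of called genes (not single genes of the lists), 657 recomputed values stayed on their side of the threshold or within 1.5 times, 38 counts moved further, 11 calls were gained, 20 lost and 3 values changed sign.

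Length and GC offsets gave CDKN1C 0.11 at 100 nM, 0.22 at 300 nM and 0.11 between doses (none called), CCNE1 -0.072 at 100 nM and CDKN2C -0.11 between doses (both turned). They also gave 6631 genes lower at 100 nM (main 4331); 8 G1/S genes higher and 22 lower, 26 S phase and mitosis genes lower, 3 neighbours at 9p21 higher and 1 lower, and 3 at 11p15.5 lower at 100 nM; and 3 S phase and mitosis genes higher and 21 lower, 2 at 9p21 lower, and 5 higher and 3 lower at 11p15.5 at 300 nM. At 9p21 the genes called higher at 300 nM with offsets were HACD4, MTAP, FOCAD and CDKN2A-DT. The cause of these shifts was not tested.

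CCNE1 at 100 nM was called with upper quartile scaling (0.44), by a fit of those 2 groups alone (0.37) and by the replicate block (0.35). CCNA1 between doses was called with DESeq2 size factors, DESeq2 and limma (0.35 each), upper quartile scaling (0.44) and the replicate block (0.28). The replicate block gave 6 G1/S genes and 2 S phase and mitosis genes higher at 100 nM (DESeq2 gave 0 of the latter) and changed no other call of the 10 genes. Between doses CDKN1C lost its call with library size alone (0.46), and CDKN2C with library size alone (0.16), no filter (0.28) and the 2 groups alone (0.28). Upper quartile scaling turned CDKN1B between doses to 0.073 (not called) while it moved the median of all genes there to 0.13, and to 0.29 at 300 nM against DMSO. Higher genes were 56.2% of calls at 100 nM and 45.1% with offsets; between doses they were 46.0%, 59.8% with upper quartile scaling and 35.2% with library size alone.

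Leaving out 1 library at a time gave 2883 to 5067 genes lower at 100 nM (lowest without 100 nM replicate 1) and 2883 to 4918 higher between doses (lowest without 100 nM replicate 2); 1 to 2 of the 10 lower at 100 nM and 3 to 6 higher between doses (3 without 300 nM replicate 1). Lists at 100 nM ran from 1 (without 100 nM replicate 2) to 8 G1/S genes higher and 8 to 16 lower, 0 to 2 S phase and mitosis genes higher, and 0 to 1 neighbours at 9p21 higher and 1 to 3 lower; at 300 nM 6 to 13 S phase and mitosis genes were higher. Log2 fold changes ran from -0.54 to -0.38 for CDKN1B, 0.41 to 0.84 for CDKN1C and 0.22 to 0.49 for CCNE1 at 100 nM, and between doses from 0.44 to 0.74 for CDKN1C, 2.43 to 2.84 for CDKN2A and 0.21 to 0.36 for CDKN2C. A lone library left in a group is assumed to vary like the other groups. CDKN2A, CDKN2B and CCND2 are limited by depth.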
